A study of Mus musculus with 15 samples.

Results

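Aminoacyl-tRNA synthetases are the enzymes that join each amino acid to its transfer RNA. The set described here holds 39 genes chosen by name: 20 genes of cytosolic enzymes, 16 genes of mitochondrial enzymes, whose symbols end in 2, and 3 genes of the scaffold proteins that hold several cytosolic enzymes together (Aimp1, Aimp2 and Eef1e1). The rule uses gene names only, but the set was chosen with earlier results of these data known. On the array, 38 of the 39 genes had at least 1 probe set with a single gene symbol, and Dars, the aspartyl enzyme, was not analysed here. The 38 genes carried 76 of the 45037 probe sets. For each gene the probe set brightest on average was used. A gene was tested where that probe set reached the median of an array on 3 or more of the 15 arrays, which 37 of the genes did, among 13160 genes tested in all. Mars2, the mitochondrial methionyl enzyme, was the exception: its brighter probe set had signals between 44 and 347 and reached the array median on 1 array. The 37 genes tested were 19 cytosolic, 15 mitochondrial and 3 scaffold genes.

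The cells were mouse AM-14 B cells. AM-14 is a transgenic B cell receptor with rheumatoid factor specificity, that is, it binds the mouse's own IgG2a, so an immune complex of IgG2a and nucleic acid can engage the receptor and bring its cargo to Toll-like receptors inside the cell. All 5 groups carried this receptor, and each had 3 arrays. The first group was kept in media alone. The second received F(ab')2 goat anti-mouse IgM, which crosslinks the receptor. The third received the phosphorothioate oligodeoxynucleotide CpG 1826, an agonist of Toll-like receptor 9. The fourth received PL2-3, an antibody to chromatin that forms a chromatin immune complex, and the fifth received anti-IgM together with CpG. The labels of the fifth group name both agents in the titles, while their treatment field reads none. Doses, times, strain, age and the way the B cells were purified are not stated in the labels. Nor is it stated whether replicates came from separate cultures or mice, so the p-values describe only how far these arrays spread, which may be technical.

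As background, a synthetase recognises its amino acid and its set of transfer RNAs, activates the amino acid with ATP and transfers it to the end of the transfer RNA. Mammalian cells keep separate nuclear genes for most of the cytosolic and mitochondrial enzymes, although the glycyl and lysyl enzymes (Gars and Kars) serve both compartments from 1 gene each. Several cytosolic enzymes sit in a multisynthetase complex on the scaffold proteins, and the others are free. Activated lymphocytes grow before they divide, and cytosolic synthetase genes are known targets of ATF4, a transcription factor of the amino acid response that binds composite C/EBP-ATF elements. E-boxes are bound by MYC and its relatives, and NRF1 and ETS sites are common in promoters of genes for mitochondrial proteins.

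Promoter windows from RefSeq (GRCm38.p6), 250 bases before to 50 bases after a start site that the promoter table gives, were at hand for 13 of the 20 cytosolic genes, 14 of the 16 mitochondrial genes and the 3 scaffold genes, in 13, 15 and 4 windows. That start site was the gene's outermost RefSeq start in 16 of the 32 windows and lay 8 to 6064 bases downstream of it in the other 16, among them Aars (6064) and Yars (169). The C/EBP-ATF element was searched as TGATGNAA on both strands. It was found in 5 of 13 cytosolic windows (38.5%), in 0 of 15 mitochondrial and 0 of 4 scaffold windows, and in 3.97% of all 32851 windows. The 5 genes were Aars, with 2 matches, Gars, Iars, Tars and Yars. Their matches are shown in capitals within 60 bases of the gene strand, to set the letters of the same element side by side; a match reads TGATGNAA, or its reverse complement where it lies on the other strand.
Aars, chr8:111033704-111033763, + strand: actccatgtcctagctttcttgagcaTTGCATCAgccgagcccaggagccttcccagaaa
Aars, chr8:111033825-111033884, + strand: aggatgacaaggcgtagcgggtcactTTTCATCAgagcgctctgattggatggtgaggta
Gars, chr6:55037945-55038004, + strand: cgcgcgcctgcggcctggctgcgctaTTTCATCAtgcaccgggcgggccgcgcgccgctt
Iars, chr13:49682111-49682170, + strand: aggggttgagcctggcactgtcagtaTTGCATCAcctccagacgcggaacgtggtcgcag
Tars, chr15:11399640-11399699, - strand: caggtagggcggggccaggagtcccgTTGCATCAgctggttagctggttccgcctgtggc
Yars, chr4:129189880-129189939, + strand: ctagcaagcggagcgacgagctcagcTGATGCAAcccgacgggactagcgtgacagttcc

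The other motifs were counted in the same windows. The E-box CACGTG was in 4 of 13 cytosolic windows (30.8%; Aars, Farsb, Iars and Tars), in 1 of 15 mitochondrial windows (Ears2) and in 7.15% of all windows. The NRF1 core GCATGCGC was in 0 of 13 cytosolic windows, in 3 of 15 mitochondrial windows (20%; Rars2, Vars2 and Wars2) and in 2.71% of all windows. The ETS core CCGGAAG was in 5 of 13 cytosolic, 4 of 15 mitochondrial and 2 of 4 scaffold windows, and in 8.86% of all windows. No motif contains another, and no matches overlapped in these windows. Whole windows are shown for Tars, which holds a C/EBP-ATF element and an E-box, and for Rars2, which holds an NRF1 core and an ETS core, because they are the threonyl and mitochondrial arginyl genes that rose with every stimulus below. Capitals mark the matches.
Tars, chr15:11399609-11399908, - strand: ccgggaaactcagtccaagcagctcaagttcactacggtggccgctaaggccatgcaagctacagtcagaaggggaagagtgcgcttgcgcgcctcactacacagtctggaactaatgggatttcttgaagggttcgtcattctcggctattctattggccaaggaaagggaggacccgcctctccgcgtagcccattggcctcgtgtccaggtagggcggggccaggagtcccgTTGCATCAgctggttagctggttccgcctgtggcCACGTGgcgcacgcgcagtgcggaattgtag
Rars2, chr4:34614707-34615006, + strand: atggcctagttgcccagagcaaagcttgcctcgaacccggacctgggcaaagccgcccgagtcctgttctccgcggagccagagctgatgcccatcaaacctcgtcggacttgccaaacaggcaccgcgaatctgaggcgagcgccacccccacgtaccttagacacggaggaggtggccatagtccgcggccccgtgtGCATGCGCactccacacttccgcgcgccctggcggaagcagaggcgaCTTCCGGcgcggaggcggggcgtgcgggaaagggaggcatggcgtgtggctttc
A match is a run of letters in a window and was not tested as a binding site.

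**Figure D1:**
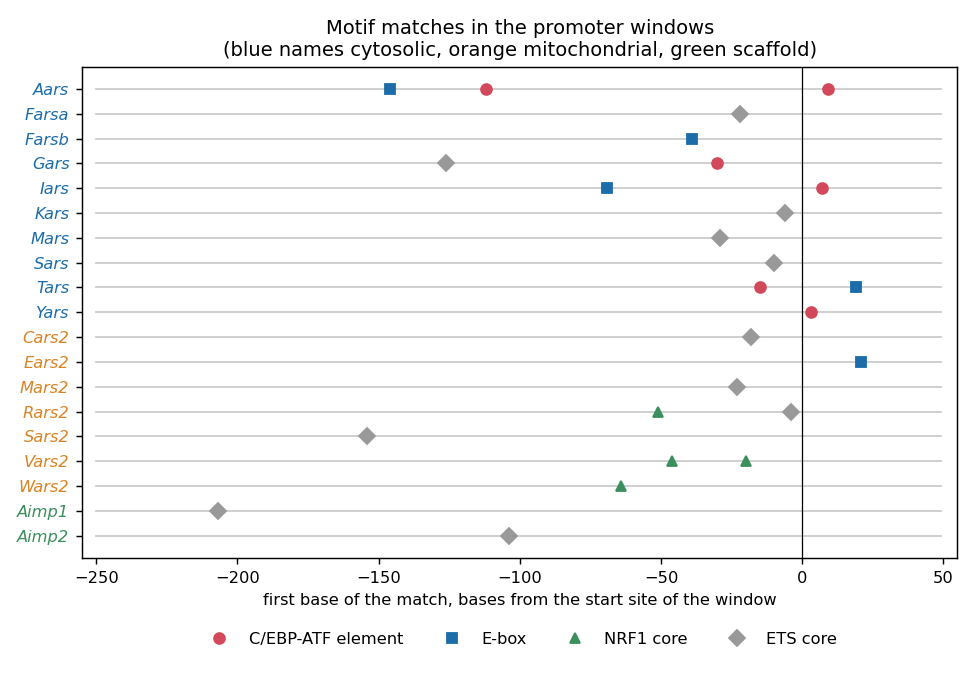
Positions of motif matches in the promoter windows of the genes that hold any; the horizontal axis gives the first base of each match in bases from the start site of the window, and each grey line spans 250 bases before to 50 bases after that site. C/EBP-ATF matches (red circles) lie in the windows of 5 cytosolic genes, and NRF1 matches (green triangles) in those of 3 mitochondrial genes.

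The samples differed in ways other than the stimulus. Per the labels, replicates 1 and 2 of each group were labelled with an Enzo kit and replicate 3 with an Ambion kit, and the kit was a term in every fit. Beta-actin control probe sets read both ends of that RNA, and in the first 4 groups their 5'/3' ratio was 0.335 to 0.747 where the kit was Enzo and 0.108 to 0.201 where it was Ambion. All 3 anti-IgM+CpG arrays had ratios of 0.105 to 0.193, whichever kit their labels name. Xist, the RNA of the inactive X chromosome, had signals of 321 to 589 on the anti-IgM+CpG arrays and of 4252 to 15543 on the other 12 arrays. The anti-IgM+CpG group therefore stands apart in values unrelated to the synthetases, and its results are also given from another fit. That fit took the labelling of each array from its actin ratio (below or above 0.25). It thereby set aside the Enzo labels of anti-IgM+CpG replicates 1 and 2. Whether the low ratios reflect the labelling or the state of the RNA was not tested. Array median signals were 412 to 514 in media and 266 to 303 with anti-IgM+CpG, and ran from 263 to 496 with the other stimuli. Of 7 B cell markers measured, 5, 5, 5 and 6 fell with anti-IgM, CpG, PL2-3 and anti-IgM+CpG, where 9.32%, 16.9%, 13.5% and 24.8% of all genes tested fell, and their summed signal was 199674 to 280393 in media and 47990 to 107035 with the stimuli. T cell, NK, myeloid and erythroid markers also had lower medians than media with each stimulus, and 3 to 5 of 8 T cell markers fell. The summed T cell signal was 7067 to 8369 in media and 2180 to 5551 with the stimuli. The summed myeloid signal was 114817 to 243687 in media and 147072 on the array labelled anti-IgM+CpG replicate 1, against 13529 and 27693 on its replicates; the erythroid signal of that array, 55300, also lay within the media range. In bulk RNA, fewer cells of a type and less RNA per cell cannot be told apart, and the part of other cells in the results below was not tested.

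Most cytosolic synthetase genes were called higher with every stimulus, as were the 3 scaffold genes, while most mitochondrial ones were not called. A gene was called where its adjusted p in limma was under 0.05. With anti-IgM, 15 of 19 cytosolic genes rose and 0 fell, against 10.1% of all genes tested called higher and 9.32% lower. With CpG, 16 of 19 rose and 0 fell, against 13.1% higher and 16.9% lower. With PL2-3, 16 of 19 rose and 1 fell (Qars), against 12.4% higher and 13.5% lower. With anti-IgM+CpG, 15 of 19 rose and 0 fell, against 17.2% higher and 24.8% lower, and 14 rose and 1 fell when labelling was taken from the actin ratio, against 14.2% and 18.7%. Of the 15 mitochondrial genes, 2, 5, 2 and 5 rose in the same order and 0 fell, and 4 rose with anti-IgM+CpG when labelling came from the actin ratio. A gene not called is not shown to be unchanged. Called or not, 13, 10, 13 and 9 of the 15 had changes above 0, beside 5336, 4926, 5711 and 4859 of the 13160 genes tested. These 4 comparisons share the media arrays, so they are not independent of each other.

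The sizes of the changes followed the same division. The median log2 change of the cytosolic genes was 0.79 with anti-IgM, 0.98 with CpG, 0.93 with PL2-3 and 1.13 with anti-IgM+CpG. For the mitochondrial genes the medians were 0.25, 0.45, 0.30 and 0.18, the last of which was 0.085 with labelling from the actin ratio. They were, for the scaffold genes 1.59, 1.99, 1.75 and 2.07 and, over all genes tested, -0.13, -0.21, -0.10 and -0.29. All log2 changes are of log2(signal + 75.19), which understates the change of dim genes. Across the 4 comparisons, 13 of 19 cytosolic, 1 of 15 mitochondrial and 3 of 3 scaffold genes rose in each, as did 7.55% of all genes tested. The number called in none of the 4 was 1 of 19 cytosolic genes (Vars) and 9 of 15 mitochondrial genes, beside 50.1% of all genes tested.

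**Figure D2:**
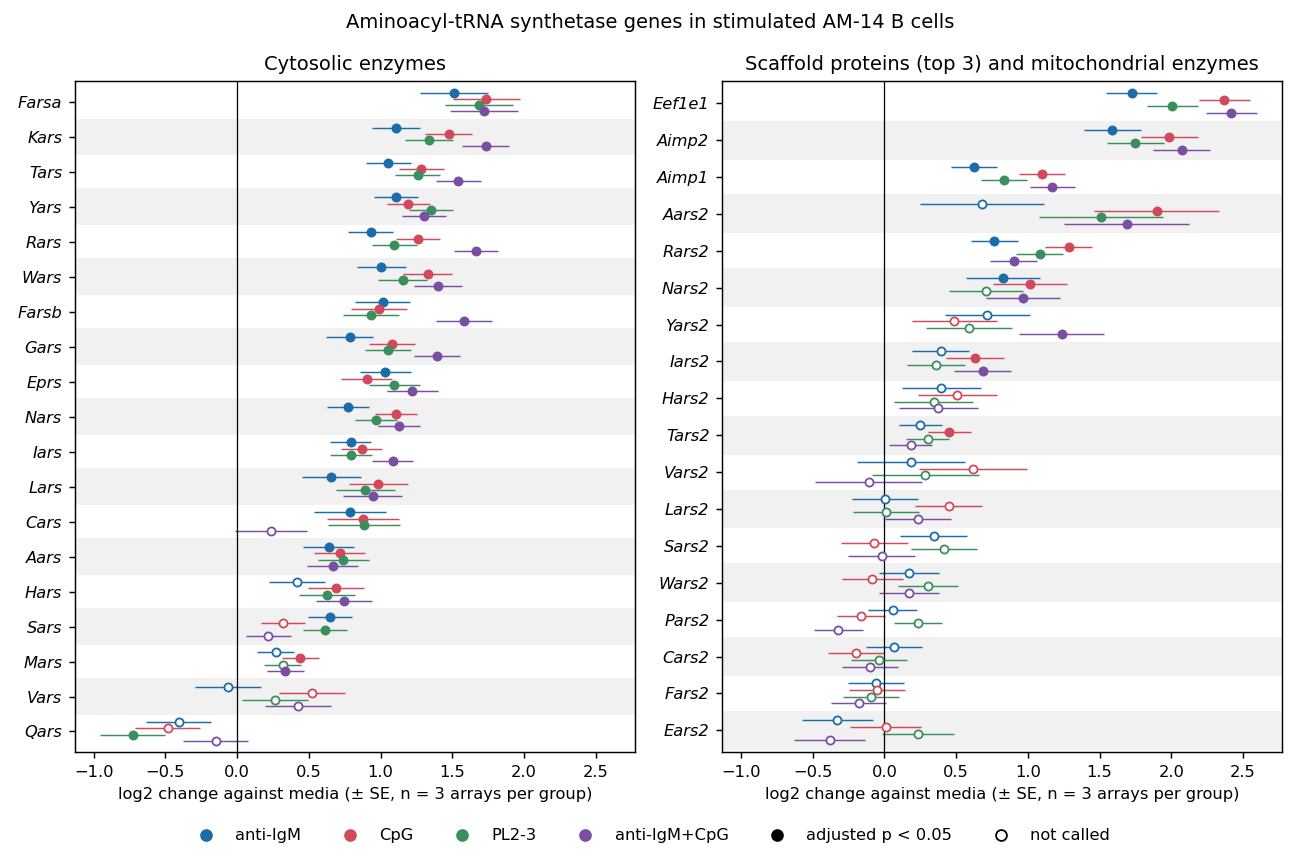
Log2 change against media of each of the 37 genes tested, with its standard error; points are coloured by stimulus and filled where the adjusted p was under 0.05, and each group has 3 arrays. Cytosolic genes (left) lie to the right of 0 except Qars and, with anti-IgM, Vars, while the mitochondrial genes (right, below the 3 scaffold genes) run from clear rises at the top to values around 0 at the bottom.

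The compartments also differed in brightness. The cytosolic genes had mean signals between 3155 and 27564, and the mitochondrial genes between 603 and 5636. Over the 4001 tested genes inside the cytosolic range, 24.1%, 31.5%, 29.6% and 40.1% were called higher in the 4 comparisons, with median log2 changes of 0.14, 0.17, 0.14 and 0.24. Over the 6690 genes inside the mitochondrial range, 7.92%, 11.2%, 10.4% and 14.6% were called higher, with medians of -0.16, -0.25, -0.16 and -0.33. Both compartments' medians were above those of all tested genes inside the same range. Genes were not matched in brightness within a range, where the members' median signals were 15510 (cytosolic) and 1525 (mitochondrial). The mean signals also include the stimulated arrays, so they hold part of any rise. Part of the distance between the compartments is also present between the brightness ranges. The median standard error was 0.17 for the cytosolic and 0.23 for the mitochondrial genes. This background by brightness was added after the changes were seen. Under quantile normalization the distance was smaller, with medians of 0.69, 0.88, 0.88 and 0.76 for cytosolic and 0.41, 0.59, 0.49 and 0.50 for mitochondrial genes. When arrays were shifted to the same median, the median over all genes became 0.12, 0.15, 0.09 and 0.30, and the share of higher among called genes went from 52.1%, 43.7%, 47.8% and 40.9% to 77.1%, 74.6%, 64.7% and 79.2%.

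Read array by array, the separation was present on each stimulated array. The median log2 difference from the media mean over the cytosolic genes was -0.03 to 0.04 on the media arrays and 0.59 to 1.26 on the 12 stimulated arrays. For the mitochondrial genes it was -0.23 to 0.10 on the media arrays and 0.07 to 0.53 on the stimulated arrays, and the cytosolic median was above the mitochondrial median on all 12. The distance between the medians was 0.33 on the array labelled anti-IgM replicate 2, the smallest among stimulated arrays, and 1.04 on the arrays labelled anti-IgM+CpG replicates 1 and 2. On the media arrays it was -0.07, -0.04 and 0.20. Without media replicate 3 the mitochondrial medians were 0.07 with anti-IgM, 0.20 with CpG, 0.27 with PL2-3 and 0.05 with anti-IgM+CpG, so the PL2-3 median moved little and the others by more than 1.5 times.

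**Figure D3:**
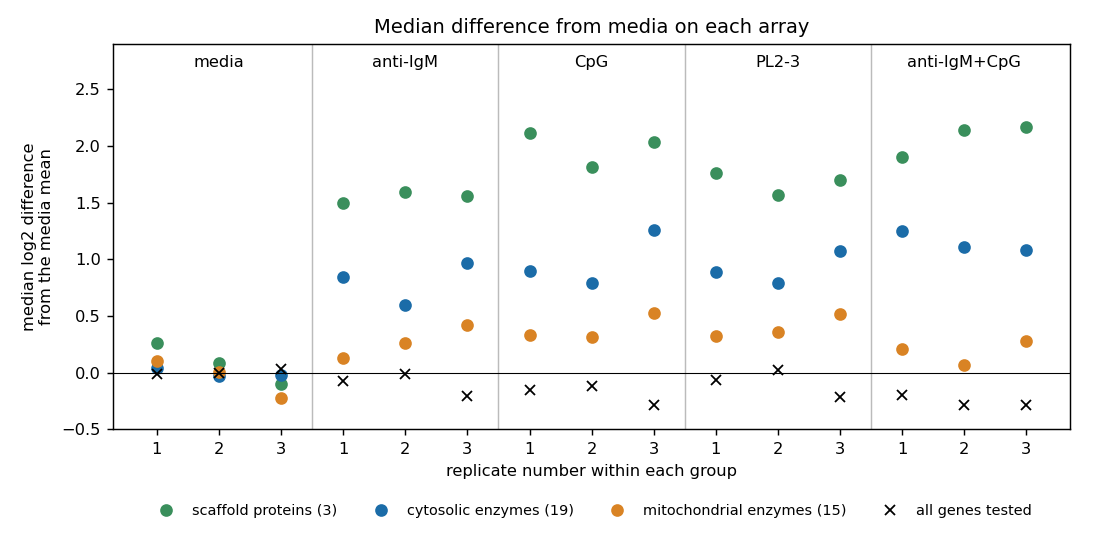
Median log2 difference from the mean of the media arrays on each of the 15 arrays, for scaffold, cytosolic and mitochondrial genes and for all genes tested; numbers under the axis are replicate numbers. On the 12 stimulated arrays the cytosolic medians are 0.59 to 1.26 and the mitochondrial medians 0.07 to 0.53.

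Of the scaffold genes, Eef1e1 and Aimp2 had the highest mean changes of the 37 genes, and Aimp1 did not. Eef1e1, whose protein docks the methionyl enzyme in the complex, had signals of 5727, 4083 and 4484 in media and of 14891, 18679 and 14047 with anti-IgM. With CpG its signals were 24274, 23677 and 26243, with PL2-3 18477, 24725 and 15494, and with anti-IgM+CpG 22717, 27015 and 27186. Every stimulated array was above every media array. The log2 changes were 1.72 ± 0.18 (SE, adjusted p = 2.27e-05) with anti-IgM, 2.37 ± 0.18 (4.95e-07) with CpG, 2.01 ± 0.18 (3.39e-06) with PL2-3 and 2.42 ± 0.18 (2.06e-07) with anti-IgM+CpG, the largest of the 37 genes in each.

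Aimp2, the scaffold protein to which the lysyl enzyme binds, followed. Its signals were 5504, 5692 and 3076 in media, 13112, 14001 and 14794 with anti-IgM, 20087, 16342 and 19023 with CpG, 15718, 13768 and 17495 with PL2-3, and 17394, 20501 and 20875 with anti-IgM+CpG. Media and stimulated arrays did not overlap. Its log2 changes were 1.59 ± 0.20 (adjusted p = 7.93e-05), 1.99 ± 0.20 (4.15e-06), 1.75 ± 0.20 (1.96e-05) and 2.07 ± 0.20 (1.4e-06). The array labelled media replicate 3 was the lowest, and without it the changes were 1.26, 1.66, 1.42 and 1.74. A second Aimp2 probe set gave changes of 1.24 to 1.70. Aimp1, the scaffold protein that carries an RNA-binding domain, rose less, by log2 changes of 0.62, 1.10, 0.83 and 1.17, each ± 0.16. Its anti-IgM change was not called on the Enzo arrays alone (adjusted p = 0.136).

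**Figure D4:**
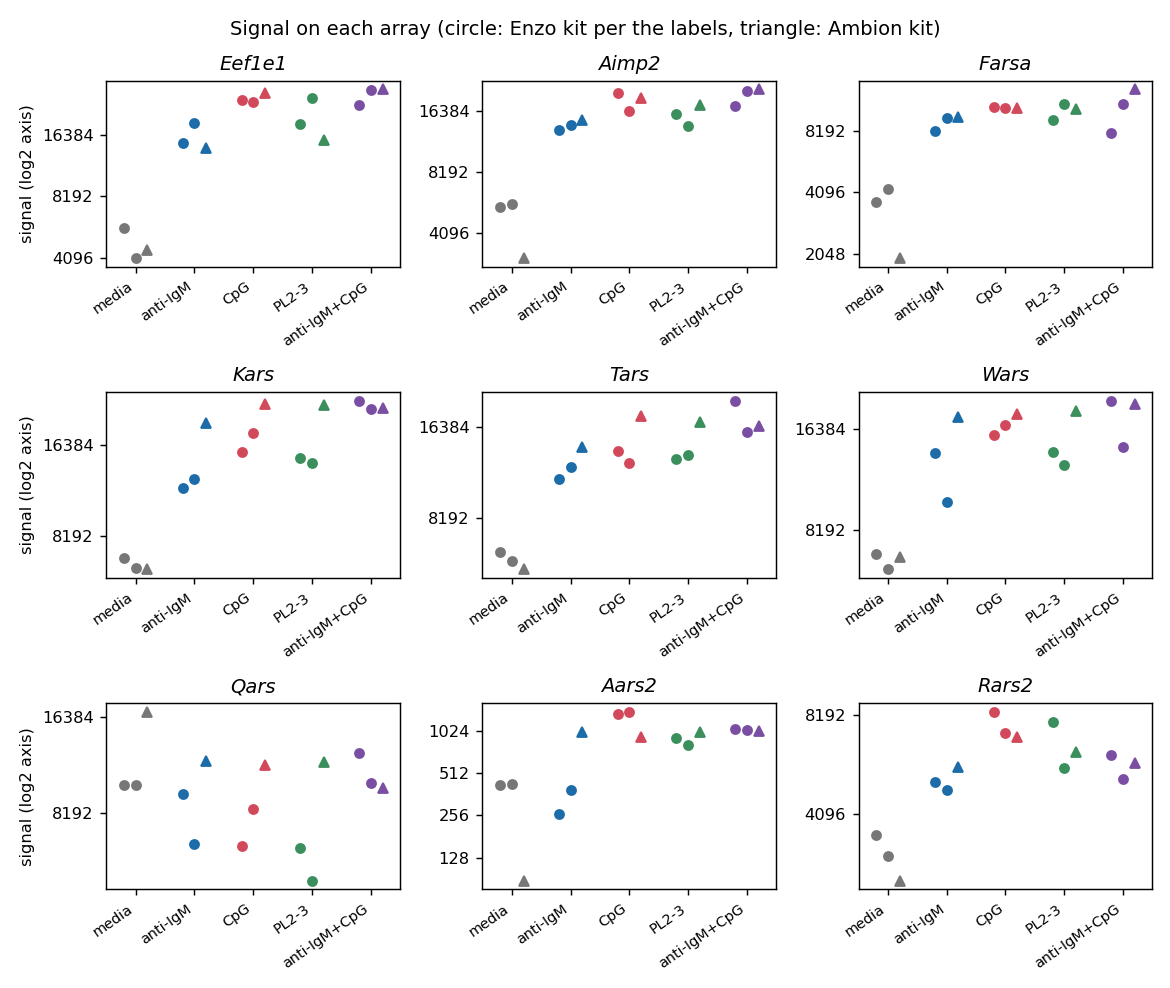
Signal of 9 genes on each array, on a log2 axis that differs between panels; circles are arrays labelled with the Enzo kit and triangles with the Ambion kit. Most of these genes were picked for the size of their changes, so a distance from media follows in part from that choice. Qars and, with anti-IgM, Aars2 overlap with media, and in the other panels all 12 stimulated arrays lie above the 3 media arrays.

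Among the cytosolic genes, Farsa had the largest change with anti-IgM, CpG and PL2-3, and Kars (1.73) was level with it (1.72) with anti-IgM+CpG. Farsa encodes the catalytic subunit of the phenylalanyl enzyme, and Farsb the other subunit of the same enzyme. Farsa signals were 3681, 4264 and 1941 in media, 8203, 9408 and 9611 with anti-IgM, 10679, 10569 and 10562 with CpG, 9241, 11051 and 10460 with PL2-3, and 7994, 11033 and 13054 with anti-IgM+CpG. No stimulated array overlapped with media. Its log2 changes were 1.51 ± 0.24 (adjusted p = 0.000388), 1.74 ± 0.24 (5.38e-05), 1.68 ± 0.24 (9.25e-05) and 1.72 ± 0.24 (3.22e-05), and 1.12, 1.35, 1.30 and 1.33 without the array labelled media replicate 3. These Farsa values rest on its brightest probe set, with a mean signal of 8783, where the others had 1089, 1039 and 638. With the mean of probe sets, the anti-IgM and anti-IgM+CpG calls of Farsa were lost. Farsb rose by 1.01, 0.99, 0.93 and 1.58, each ± 0.19, and its anti-IgM+CpG change was 1.07 with labelling taken from the actin ratio.

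Kars, the lysyl enzyme of both compartments, had media signals of 6942, 6431 and 6354 and stimulated signals from 11833 to 22922. It rose by 1.11 ± 0.17 (adjusted p = 0.000296), 1.47 ± 0.17 (1.19e-05), 1.34 ± 0.17 (3.84e-05) and 1.73 ± 0.17 (1.41e-06). Gars, the glycyl enzyme of both compartments, rose by 0.78, 1.08, 1.05 and 1.39. Both genes therefore moved like the cytosolic group in which they are counted. Tars (threonyl) had media signals of 5530 to 6305 and stimulated signals of 11048 to 20015, and rose by 1.05, 1.28, 1.26 and 1.54, each ± 0.16. Yars (tyrosyl) had media signals of 2045, 2028 and 1893, with a stimulated range of 4147 to 5735, and rose by 1.11 ± 0.15 (adjusted p = 0.000151), 1.19 ± 0.15 (3.15e-05), 1.35 ± 0.15 (1.78e-05) and 1.30 ± 0.15 (7.56e-06).

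Wars, the tryptophanyl enzyme, is known as a gene induced by interferon gamma. Its signals were 6949, 6258 and 6814 in media, 13900, 9913 and 17725 with anti-IgM, 15698, 16790 and 18164 with CpG, 14008, 12832 and 18477 with PL2-3, and 19888, 14446 and 19430 with anti-IgM+CpG. Media and stimulated arrays did not overlap. Its log2 changes of 1.01, 1.33, 1.15 and 1.40 (each ± 0.17) were within the range of the other cytosolic genes.

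The remaining cytosolic genes called with every stimulus are given by their changes alone. Rars (arginyl) rose by 0.93, 1.26, 1.10 and 1.67, and Eprs, whose protein joins the glutamyl and prolyl enzymes, by 1.03, 0.90, 1.09 and 1.22. Nars (asparaginyl) rose by 0.77, 1.11, 0.97 and 1.13, Iars (isoleucyl) by 0.79, 0.87, 0.79 and 1.08, Lars (leucyl, also known as a leucine sensor for mTORC1) by 0.66, 0.98, 0.89 and 0.94, and Aars (alanyl) by 0.64, 0.72, 0.74 and 0.67. The anti-IgM change of Lars was not called on the Enzo arrays alone (adjusted p = 0.197), and that of Aars narrowly not (0.0536).

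Enzymes of the multisynthetase complex and free enzymes are given side by side, without a test of the difference and beside the shares of all genes above. Of 7 complex enzymes tested, 5, 6, 5 and 6 rose, with medians of 0.79, 0.90, 0.89 and 1.08. Of 12 free enzymes, 10, 10, 11 and 9 rose, with medians of 0.79, 1.03, 0.95 and 1.21. By structural class, 6, 7, 6 and 6 of 9 class I enzymes and 8, 8, 9 and 8 of 9 class II enzymes rose, with Eprs in neither count. Cytosolic genes with the C/EBP-ATF element had median changes of 0.79, 1.08, 1.05 and 1.30 (5 genes), and those with a window but no element 1.01, 0.90, 0.93 and 1.22 (7 tested genes). The ranges of these groups overlapped in all 4 comparisons.

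Vars and Qars were the exceptions among the cytosolic genes, and 4 others passed the test with some stimuli only. Vars, the valyl enzyme, was called with no stimulus (log2 changes of -0.06, 0.52, 0.27 and 0.42, each ± 0.23). Mars (methionyl) rose with CpG by 0.44 ± 0.13 (adjusted p = 0.0162) and with anti-IgM+CpG by 0.34 ± 0.13 (0.0454). Neither call held on the Enzo arrays alone, without the array labelled media replicate 3 or under quantile normalization, where the changes were 0.24 and -0.01. The anti-IgM+CpG call was also lost with labelling from the actin ratio (adjusted p = 0.125). Hars (histidyl) rose with CpG, PL2-3 and anti-IgM+CpG (0.69, 0.63 and 0.75) and was 0.42 ± 0.20 with anti-IgM (adjusted p = 0.158). Its anti-IgM+CpG call was also lost with the actin ratio (adjusted p = 0.0723). Sars (seryl) rose with anti-IgM (0.65 ± 0.15) and PL2-3 (0.61 ± 0.15), but was 0.32 ± 0.15 with CpG (adjusted p = 0.131) and 0.22 ± 0.15 with anti-IgM+CpG (0.269).

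Cars, the cysteinyl enzyme, was the gene whose anti-IgM+CpG value moved most when labelling was taken from the actin ratio. Its signals were 2491, 2744 and 1068 in media, 3988, 4956 and 2013 with anti-IgM, 4074, 4653 and 2525 with CpG, 4598, 5282 and 1992 with PL2-3, and 2244, 2198 and 2498 with anti-IgM+CpG. In the first 4 groups the Ambion array was the lowest, and the 3 anti-IgM+CpG arrays lay near the Ambion arrays of the other stimuli. Cars rose by 0.79 ± 0.25 (adjusted p = 0.0361), 0.88 ± 0.25 (0.0145) and 0.88 ± 0.25 (0.0156) with the first 3 stimuli. None of these calls held without the array labelled media replicate 3 (0.63, 0.71 and 0.72). With anti-IgM+CpG its change was 0.24 ± 0.25 (adjusted p = 0.463), and 0.97 (0.000472) with labelling taken from the actin ratio.

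Qars, the glutaminyl enzyme, was the cytosolic gene with changes below 0 in all 4 comparisons, although with arrays shifted to the same median the anti-IgM+CpG change was 0.44. Its brightest probe set had signals of 10037, 10033 and 17040 in media, 9376, 6542 and 11908 with anti-IgM, 6429, 8400 and 11553 with CpG, 6317, 4998 and 11827 with PL2-3, and 12664, 10134 and 9766 with anti-IgM+CpG. Each stimulated group overlapped with media, and the Ambion array was the highest of its group in the first 4 groups. The log2 changes were -0.41 ± 0.23 (adjusted p = 0.239), -0.48 ± 0.23 (0.123), -0.73 ± 0.23 (0.0263) and -0.15 ± 0.23 (0.618). The PL2-3 fall was not called without the array labelled media replicate 3 or with arrays shifted to the same median, where it was -0.65 and -0.54. With the actin ratio, the anti-IgM+CpG change was -0.66 (adjusted p = 0.0128). The probe sets of Qars disagreed. In a fit of all probe sets, the second brightest had changes of 0.01, 0.20, 0.16 and 0.50 and rose with anti-IgM+CpG (adjusted p = 0.0471), whereas the third had -0.67, -1.14, -0.83 and -1.85 and fell with CpG and with anti-IgM+CpG. The direction for Qars is therefore uncertain.

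The same fit of all 67 member probe sets that passed the filter gave the other disagreements. Of 38 cytosolic probe sets, 27, 27, 28 and 27 rose and 1, 2, 2 and 1 fell in the 4 comparisons, against 8.11%, 11%, 9.99% and 14.5% of all probe sets tested called higher and 6.67%, 13.5%, 10.9% and 24.8% lower. Of 25 mitochondrial probe sets, 3, 6, 3 and 6 rose and 0 fell, and all 4 scaffold probe sets rose in each. Those that fell were the Qars sets named above and, with anti-IgM, CpG and PL2-3, the dimmest set of Farsb, with a mean signal of 597 (log2 changes of -2.55, -2.24 and -2.24). The other 3 Farsb probe sets had changes of 0.51 to 2.44. In at least 1 comparison, other probe sets of Cars, Farsa, Cars2, Ears2, Lars2, Tars2, Vars2 and Wars2 had changes opposite in sign to the first, and none of those was called.

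Of the mitochondrial genes, Rars2, the arginyl enzyme, rose with all 4 stimuli. Its signals were 3546, 3065 and 2588 in media, 5145, 4867 and 5688 with anti-IgM, 8365, 7238 and 7016 with CpG, 7768, 5662 and 6313 with PL2-3, and 6199, 5237 and 5849 with anti-IgM+CpG. Media and stimulated arrays did not overlap. The log2 changes were 0.77 ± 0.16 (adjusted p = 0.00357), 1.28 ± 0.16 (3.15e-05), 1.08 ± 0.16 (0.000174) and 0.90 ± 0.16 (0.00039), and the anti-IgM change was not called on the Enzo arrays alone (adjusted p = 0.0784).

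Aars2, the alanyl enzyme, had the largest mitochondrial changes with CpG, PL2-3 and anti-IgM+CpG. It reached the array median on 10 arrays, none of them media, so it was tested only through groups in which it is high, and its calls follow in part from that filter. Its signals were 423, 432 and 88 in media, 264, 389 and 1001 with anti-IgM, 1353, 1407 and 933 with CpG, 917, 816 and 1001 with PL2-3, and 1058, 1033 and 1022 with anti-IgM+CpG. The anti-IgM arrays overlapped with media, and the arrays of the other 3 stimuli did not. It rose by 1.90 ± 0.43 (adjusted p = 0.00351) with CpG, 1.51 ± 0.43 (0.0168) with PL2-3 and 1.69 ± 0.43 (0.00541) with anti-IgM+CpG, and was 0.68 ± 0.43 (0.311) with anti-IgM. Without the array labelled media replicate 3 the 4 changes were 1.27 with CpG, 0.88 with PL2-3, 1.06 with anti-IgM+CpG and 0.05 with anti-IgM, and PL2-3 was no longer called.

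Nars2 (asparaginyl) rose with anti-IgM (0.83 ± 0.26), CpG (1.01 ± 0.26) and anti-IgM+CpG (0.97 ± 0.26), and was 0.71 ± 0.26 with PL2-3 (adjusted p = 0.0542). None of the 3 calls held without the array labelled media replicate 3 (0.57, 0.75 and 0.71). Iars2 (isoleucyl) rose with CpG (0.63 ± 0.20) and anti-IgM+CpG (0.68 ± 0.20), the latter not with the actin ratio (0.35, adjusted p = 0.184). Tars2 (threonyl) rose with CpG (0.45 ± 0.15, adjusted p = 0.0321).

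Yars2 (tyrosyl) was called with anti-IgM+CpG only (1.24 ± 0.30, adjusted p = 0.00353), with signals of 1573, 1228 and 2479 in media against 3305, 6732 and 3040. With labelling from the actin ratio that change was 0.78, and the anti-IgM change (0.72) was then called, as it was under quantile normalization (0.90). Its second probe set rose in all 4 comparisons, by 1.01, 1.45, 0.96 and 1.63. The other 9 mitochondrial genes were called in none: Cars2 (cysteinyl), Ears2 (glutamyl), Fars2 (phenylalanyl), Hars2 (histidyl), Lars2 (leucyl), Pars2 (prolyl), Sars2 (seryl), Vars2 (valyl) and Wars2 (tryptophanyl). Their changes ran from -0.38 (Ears2, anti-IgM+CpG) to 0.62 (Vars2, CpG), with standard errors that reached 0.37 for Vars2.

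Enzymes for the same amino acid were set side by side in 15 pairs, with Eprs opposite both Ears2 and Pars2 and Farsa opposite Fars2. The cytosolic change was larger in 12 of 15 pairs with anti-IgM, 12 with CpG, 13 with PL2-3 and 14 with anti-IgM+CpG. The median differences between the pair's log2 changes were 0.40, 0.54, 0.76 and 0.53. Aars2 exceeded Aars in all 4 comparisons, Vars2 exceeded Vars in 3, Nars2 exceeded Nars with anti-IgM, and Rars2 exceeded Rars with CpG, by 1.28 against 1.26. Some of these excesses were small. With anti-IgM, Aars2 was at 0.68 against 0.64 for Aars, and at 0.05 without the array labelled media replicate 3. With PL2-3, Vars2 was at 0.284 against 0.266 for Vars. Aars2 passed the filter on stimulated arrays only. With CpG, the leucyl pair was 0.98 against 0.45 and the tryptophanyl pair 1.33 against -0.08. These pairs are a description without a test, and they were set up after the changes were seen.

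Differences between the stimuli were smaller than those from media. CpG against anti-IgM called 1 of 37 genes, Eef1e1, which was higher with CpG by 0.65 ± 0.18 (adjusted p = 0.0397), against 6.41% of all genes tested. Eef1e1 was not called without the array labelled anti-IgM replicate 1, and up to 3 genes were called when another array was left out. At an unadjusted p under 0.05, 7 genes were higher and 1 (Sars) was lower with CpG, where 16.9% of all genes tested passed in either direction. PL2-3 against anti-IgM and PL2-3 against CpG each called 0 of 37 in limma, against 0.691% and 3.2% of all genes called. At an unadjusted p under 0.05 there was 1 gene in each (Ears2 and Pars2), against 7.18% and 13.3% of all genes tested. The median log2 difference over the 37 genes was 0.13 for PL2-3 against anti-IgM and -0.09 for PL2-3 against CpG.

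Anti-IgM+CpG against anti-IgM called 5 of 37 genes, all higher, against 9.07% of all genes tested. They were Rars (0.73 ± 0.16, adjusted p = 0.00919), Eef1e1 (0.70 ± 0.18, 0.0242), Kars (0.63 ± 0.17, 0.0284), Gars (0.61 ± 0.16, 0.0279) and Aimp1 (0.55 ± 0.16, 0.0425). With labelling taken from the actin ratio only Eef1e1 was called (0.81, adjusted p = 0.0212), and Rars, Kars and Gars were at 0.33, 0.36 and 0.28. Without the array labelled anti-IgM replicate 1 the count was 1, and without anti-IgM+CpG replicate 3 it was 9. Anti-IgM+CpG against CpG called 0 of 37 (4.53% of all genes), and PL2-3 against anti-IgM+CpG called 0 of 37 (1.84%). At an unadjusted p under 0.05 there were 5 and 11 of the 37, against 19.2% and 20.4% of all genes tested. Without the array labelled anti-IgM+CpG replicate 3 the numbers called were 5 and 8. Beside these, Cars and Farsb differed most when labelling was taken from the actin ratio. Between anti-IgM+CpG and CpG they were at -0.64 and 0.59, and at 0.10 and 0.08 in that fit.

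The change with anti-IgM+CpG was below the sum of the single changes for most genes. On the log2 scale, 33 of 37 genes were below the sum, 18 of 19 cytosolic, 12 of 15 mitochondrial and 3 of 3 scaffold, with medians of -0.70, -0.29 and -1.50 beside 0.05 over all genes tested. Above the sum were 4 of the 37 genes and 7016 of the 13160 genes tested. That background did not set apart genes that rose with both single agents, so it is not a like background for these. Of the 37 genes, 6 were called lower in the interaction test, against 1.66% of all genes called lower and 0.836% higher. Eef1e1 summed to 4.09 from its single changes and reached 2.42, a shortfall of -1.68 ± 0.25 (adjusted p = 0.00633). The others called were Farsa (-1.53 ± 0.33, adjusted p = 0.0259), Aimp2 (-1.50 ± 0.28, 0.0147), Cars (-1.43 ± 0.35, 0.0448), Rars2 (-1.15 ± 0.23, 0.0204) and Yars (-1.0 ± 0.21, 0.0247). The change with both agents was above the larger single change in 12 of 19 cytosolic, 3 of 15 mitochondrial and 3 of 3 scaffold genes. No share over all genes was computed for this count, so it does not set the compartments apart. With labelling from the actin ratio 11 of 37 genes were called lower, against 1.91%. Cars was not among them (-0.69, adjusted p = 0.131), while the other 5 genes were. The count was 1 without the array labelled anti-IgM replicate 3 and 9 without anti-IgM+CpG replicate 3.

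**Figure D5:**
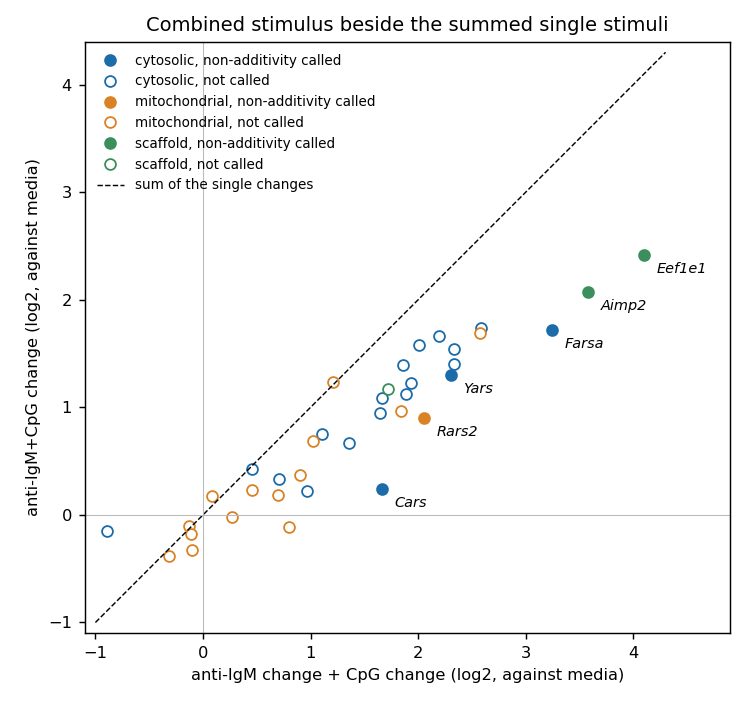
Log2 change with anti-IgM+CpG (vertical axis) against the sum of the log2 changes with anti-IgM and with CpG (horizontal axis) for the 37 genes; filled points had an adjusted p under 0.05 for the difference, and the dashed line marks equality. Of the 37 points 33 lie below the line, and the largest sums are those of Eef1e1, Aimp2 and Farsa.

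Genes that make and handle the transfer RNA partly moved with the enzymes. Of 24 genes of tRNA transcription and processing tested, 10, 11, 13 and 16 rose and 2, 2, 2 and 3 fell, and 8 rose in all 4 comparisons. Over all genes tested, 10.1%, 13.1%, 12.4% and 17.2% rose, 9.32%, 16.9%, 13.5% and 24.8% fell, and 7.55% rose in all 4, which is also the background for the lists that follow. With labelling from the actin ratio, 13 of the 24 rose and 2 fell with anti-IgM+CpG. With anti-IgM the largest were Elac2, which trims the 3' end of the precursor (1.46), Polr3gl, a variant subunit of RNA polymerase III (-1.39), and Polr3e, another subunit (1.21). With CpG they were Rpp40, a subunit of RNase P and RNase MRP (1.85), Polr3e (1.62) and Polr3d (1.44). With PL2-3 they were Polr3gl (-1.73), Polr3g, the paralog that can take the place of Polr3gl (1.61), and Elac2 (1.61), and with anti-IgM+CpG Elac2 (2.11), Rpp40 (1.92) and Polr3f (-1.83). The Polr3f value was -0.47 with the actin ratio. The 2 genes that fell in all 4 comparisons were Polr3gl and Maf1, the repressor of RNA polymerase III, which fell by 0.85, 0.82, 0.94 and 0.82 on the log2 scale.

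Elongation factors split. Of 8 tested, 3, 4, 4 and 4 rose and 0 fell, and 3 rose with anti-IgM+CpG when labelling came from the actin ratio. Tsfm and Gfm1, factors of mitochondrial translation, rose by 0.97, 1.44, 1.11 and 1.42 and by 0.62, 1.04, 1.03 and 0.97. Eef1d, a cytosolic exchange factor, rose by 0.56, 0.66, 0.66 and 1.09. Eef1a1, which carries charged transfer RNA to the cytosolic ribosome, was at -0.37, -0.30, -0.41 and -0.38 and was not called. Of 10 accessory genes of charging, 0, 0, 0 and 1 rose and 1, 0, 1 and 2 fell, counts near those shares of all genes. The rise, of Gatb with anti-IgM+CpG (0.80), was not called with the actin ratio (0.44, adjusted p = 0.258). Qrsl1, a subunit of the mitochondrial amidotransferase that makes glutaminyl-tRNA, fell with anti-IgM, PL2-3 and anti-IgM+CpG (-1.28, -1.31 and -0.81).

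In the list of the amino acid response, 8, 10, 13 and 14 of 29 tested genes rose and 0, 3, 0 and 6 fell. The falls made up no larger share than among all genes in any of the 4 comparisons. Atf4 itself rose by 0.59, 0.67, 0.68 and 0.74. Among the largest rises, Slc1a5, a glutamine transporter, changed by 1.51, 0.92, 1.51 and 2.05, Psat1, an enzyme of serine synthesis, by 1.42, 1.07, 1.58 and 1.86, and Mthfd2, an enzyme of mitochondrial folate metabolism, by 1.16, 1.33, 1.58 and 1.81. Ddit4, an inhibitor of mTORC1, fell with CpG and with anti-IgM+CpG (-2.35 and -2.64). Ddit3, the stress factor CHOP, fell with CpG (-1.03) and with anti-IgM+CpG (-0.68), the latter not with the actin ratio (-0.42, adjusted p = 0.244). Trib3 and Chac1, stress targets of ATF4, were called in none of the 4 comparisons. By contrast, Atf3 of the same list rose in all 4, by 1.04, 1.35, 1.08 and 1.65, and was its largest rise with CpG. The stress genes of the list thus did not move in 1 direction. With the actin ratio, 11 genes of this list rose and 3 fell with anti-IgM+CpG.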

How the data were processed

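RNA of 15 samples was hybridised to 15 Affymetrix mouse arrays. The authors deposited 1 intensity per probe set and array on a linear scale, made with MAS5 per the submitters' processing notes (version not given in the sources used here); trimmed means (2% off each end) of 1499 to 1500 on every array show that each array was scaled as a whole. Depth does not apply, and precision is limited by 3 arrays per group. Of 45037 probe sets beside 64 controls, 34945 had 1 gene symbol in the platform annotation, 932 several and 9160 none, and 34741 matched RefSeq. Intensities were analysed as log2(signal + 75.19, the 20th percentile), with 1 probe set per gene (highest mean signal), in limma 3.58.1 (R 4.3.3; lmFit, eBayes with trend) over 5 groups and the labelling kit, with 9 residual degrees of freedom. Benjamini-Hochberg adjustment ran over 13160 genes and calls used 0.05. Lists and medians were described without a test. Alternatives were scaling, pseudocount, filter, labelling term, arrays used, trend, probe set rule and each array left out. Scripts were tested on simulated data, in which 27% of 2-fold and 73.5% of 4-fold changes were called. The rule for named genes took all called members over media, full statistics for the 5 largest rises and 3 largest falls, members against their compartment's sign, up to 3 called genes per list and comparison, and up to 4 called members elsewhere. Further called members, Eef1a1, Gfm2, Maf1, Atf4, Ddit3, Trib3, Chac1 and the members named at an unadjusted p were named after their values were seen. The members and lists were chosen with earlier results of these data known. Promoter windows were searched in Python 3.11.15, and figures drawn with matplotlib 3.10.9.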

Additional observations from a re-analysis of the deposited data

Results flagged for a closer look

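In 6 genes the change with anti-IgM+CpG differed from the sum of the changes with anti-IgM and with CpG by the interaction test (log2 difference, adjusted p under 0.05 in limma): Cars -1.43, Farsa -1.53, Yars -1.0, Rars2 -1.15, Aimp2 -1.50 and Eef1e1 -1.68. On all 3 anti-IgM+CpG arrays the actin ratio (0.105 to 0.193) and the Xist signal (321 to 589) stood apart from the labelled Enzo arrays and from the other groups, respectively, and the part of the Xist difference was not tested. With labelling taken from the actin ratio, all of these genes except Cars (-0.69, adjusted p = 0.131) were again called. The Eef1e1 call held under all 28 alternatives, that of Aimp2 under 23, Rars2 under 20, Yars under 18, Farsa under 16 and Cars under 9. With arrays shifted to the same median, only the Eef1e1 call held.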

How the results depend on the processing

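Of 95 called results of single genes, 63 kept their call under every alternative and 94 their direction; the exception was Mars with anti-IgM+CpG, at -0.012 under quantile normalization. The cause of the changes below was not tested. With arrays shifted to the same median, the cytosolic medians were 1.03, 1.34, 1.12 and 1.72 for anti-IgM, CpG, PL2-3 and anti-IgM+CpG over media, and the mitochondrial medians 0.49, 0.81, 0.49 and 0.78, with 9 mitochondrial genes called for anti-IgM+CpG, 9 genes called for anti-IgM+CpG against anti-IgM, 3 for PL2-3 against anti-IgM+CpG and 1 for the interaction. Under quantile normalization the mitochondrial medians were 0.41, 0.59, 0.49 and 0.50 (4 called for PL2-3), the cytosolic anti-IgM+CpG median was 0.76, and 0, 2 and 13 genes were called for CpG against anti-IgM, anti-IgM+CpG against anti-IgM and the interaction, here called the last 3 comparisons. On the Enzo arrays alone 0, 2 and 1 mitochondrial genes were called for anti-IgM, CpG and PL2-3, the mitochondrial medians for anti-IgM, CpG and anti-IgM+CpG were 0.094, 0.24 and 0.053, and 2, 8, 4 and 5 genes were called for CpG and for anti-IgM+CpG against anti-IgM, anti-IgM+CpG against CpG and PL2-3 against anti-IgM+CpG. With the mean of probe sets the mitochondrial medians were 0.057, 0.11 and -0.057 for anti-IgM, CpG and anti-IgM+CpG, the cytosolic anti-IgM+CpG median was 0.84, and CpG against anti-IgM called 0. Without the labelling term 1 and 3 mitochondrial genes were called for anti-IgM and CpG, and 0, 0 and 2 genes in the last 3 comparisons. Those counts were 2, 1 and 11 with labelling from the actin ratio, 4, 0 and 3 with the compared groups only, and 0, 1 and 1 without the trend. Without the filter 1 mitochondrial gene was called for anti-IgM and 0 genes for CpG against anti-IgM, and the filter on all arrays gave 10 for the interaction, with some members no longer tested.

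Leaving out each array in turn gave 12 to 15, 14 to 17, 14 to 17 and 14 to 15 cytosolic calls over media, with medians of 0.75 to 0.86, 0.85 to 1.04, 0.89 to 0.99 and 1.01 to 1.21. Mitochondrial calls were 1 to 3, 2 to 6, 1 to 4 and 4 to 5, with medians of 0.070 to 0.33, 0.20 to 0.53, 0.26 to 0.40 and 0.049 to 0.32. Between stimuli, the counts were 0 to 3 for CpG against anti-IgM, 1 to 9 for anti-IgM+CpG against anti-IgM, 0 to 5 for anti-IgM+CpG against CpG, 0 to 8 for PL2-3 against anti-IgM+CpG and 1 to 9 for the interaction.

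The replicate numbers did not pair all arrays: same-numbered arrays deviated together in 18 of 18 pairs without an anti-IgM+CpG array (correlations of 0.12 to 0.68) and in 0 of 12 pairs with one, and 11 of 15 arrays correlated best with their own number. With the replicate number as a block in place of the kit, 2 genes were called for CpG against anti-IgM, and no other count moved by over 1.5 times.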
